A study of Mus musculus with 63 samples.

Results

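Single mouse cells regenerated from pluripotent stem cells were divided here by their level of Gata3, the gene of a zinc finger transcription factor, and the other genes of the 2 groups were compared. The groups were chosen by Gata3 itself, at or above 10 TPM (transcript abundance scaled to one total per library) against below 10 TPM, so the Gata3 difference describes the split and is no finding. The rule kept 18 of the 48 cells of the series, from 33 of its 63 libraries. Of these, 7 cells were Gata3-positive and 11 were Gata3-negative.

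GATA3 binds DNA through its zinc fingers and is required for T cells and for helper-type innate lymphoid cells (ILCs), which are lymphocytes without rearranged antigen receptors. In ILC development it acts in the common helper innate lymphoid progenitor (CHILP) and its descendants, and it stays highest in group 2 ILCs (ILC2), which make type 2 cytokines. Group 3 ILCs (ILC3) and lymphoid tissue inducer (LTi) cells make IL-22 and lymphotoxin.

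The cells compared, called iR9 in the labels, were C57BL/6 cells with a GFP mark, which the series title describes as of pluripotent stem cell origin. They came from the bone marrow of recipients without Rag2 and Il2rg (Rag2-/-Il2rg-/-), 4 weeks after transplantation. The labels do not spell out iR9, and they name no donor line, clone, animal or age. The gate was CD45.2+, lineage-negative, CD127+, CD135-, α4β7+, Sca1 mid or negative and CD25-. Wild-type (WT) CHILPs of the same gate and strain, without the GFP step, gave 29 further cells. All cells of both Gata3 groups share the iR9 source, the recipient genotype and the gate.

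Of the 18 cells, 15 were averages of 2 libraries with the same cell number, whose titles end in 2 and 3. Pearson's r between such libraries across 2861 genes was 0.971 to 0.991, against at most 0.365 for the 513 pairs with different numbers. Cell 28-3 had 1 library, and so had cells 14-1 and 17-1, which come from the title series ending in 1. Both suffix 1 cells were Gata3-positive, so for cells 14-1 and 17-1 the title series and the Gata3 group cannot be told apart. The 5 other positive cells and all 11 negative cells come from the series ending in 2 and 3. A second value in parentheses after a difference or median is that for the 5 other positive cells. Library 12-1 was left out by the rule. With no animal or culture named, the 18 cells count as 1 sample, and every difference below is a description with no test, with the SD over cells beside the genes described in most detail.

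Gata3 (GRCm38 chromosome 2, 9857078 to 9890034, reverse strand) had a lowest, median and highest level of 37.2, 195.6 and 307.3 TPM in the positive cells. In the negative cells it was listed at 0 in 6 of 11, and the highest was 6.59 TPM. The nearest cells on each side of the threshold were cell 17-1 at 37.2 TPM and cell 30 at 6.59 TPM, whose libraries read 4.56 and 8.61 TPM. No cell lay between these values. Among WT cells, 24 were Gata3-positive by the same rule, at 118 to 1853 TPM, and 5 were Gata3-negative. The highest iR9 cell thus lay below the median of the positive WT cells, 510 TPM.

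The number of genes at TPM of at least 1 had a median of 1956 in positive cells (1566 to 3238) and 1729 in negative cells (1514 to 2174). Without the suffix 1 cells the positive median was 1577, which turns the order of the medians around. The ranges overlapped, and the cell with the most genes, 3238, was suffix 1 cell 14-1. Read depth is unknown, because TPM sums to the same total in every library. In this kind of data a gene is mostly either high or near 0. Of all values of the 2861 genes, 49.4% were below 1 TPM, 14.7% were from 1 to below 10 TPM and 35.9% were at or above 10 TPM, with a median of 535 TPM among the last. A cell is said below to hold a gene at TPM of at least 10, and a value of 0 means only that the gene is listed at 0.

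**Figure D1:**
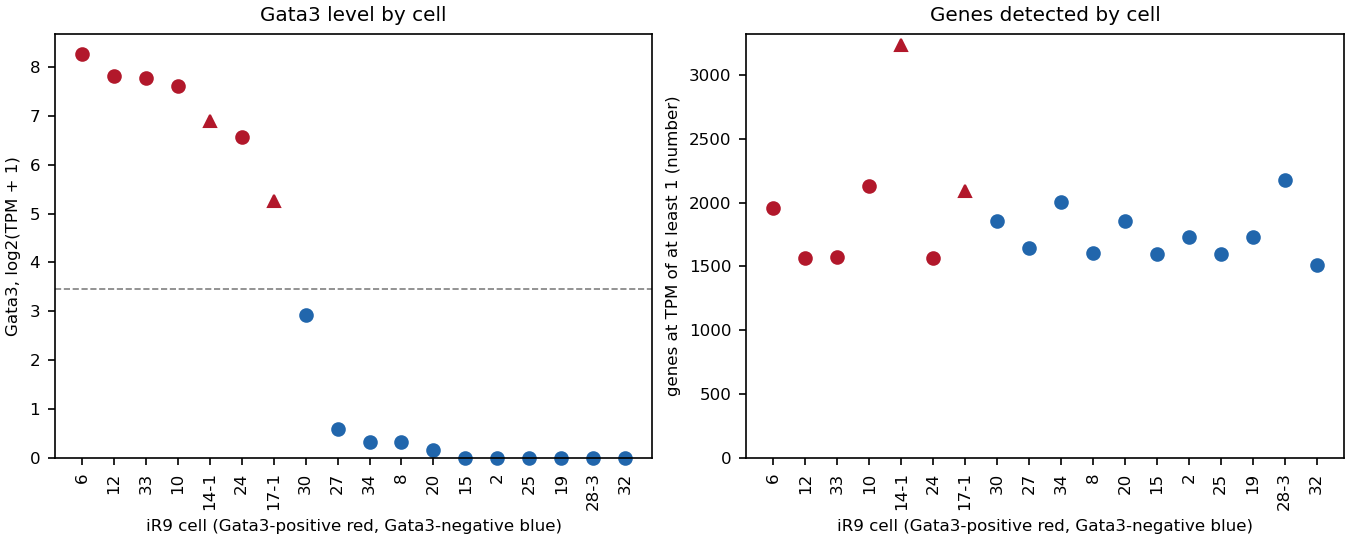
Gata3 level (left, log2(TPM + 1)) and number of genes at TPM of at least 1 (right) in each of the 18 iR9 cells. Each point is a cell, red for the 7 Gata3-positive and blue for the 11 Gata3-negative cells, triangles mark the suffix 1 cells and the dashed line is 10 TPM. Cell 30 at 6.59 TPM is the negative cell nearest the line, and cell 14-1 has the most genes, 3238.

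Differences are the mean of log2(TPM + 1) in positive cells minus that in negative cells, over the 2861 genes that reached 1 TPM in 4 or more of the 18 cells. A difference of at least 2, which is 4-fold on this scale, was taken as the mark. By it 430 genes were higher in positive cells, 15% of those measured, and 260 were lower, 9.09%. Without the suffix 1 cells the counts were 392 higher, 13.7%, and 415 lower, 14.5%. Of the genes past the mark, 277 higher and 220 lower ones passed it both ways, and none changed sign. Of all measured genes, 56.1% had a difference above 0. The sign of the balance did change: the median over all genes was 0.22 with all cells and -0.07 without the suffix 1 cells.

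The spread between cells was large against these differences. The median SD of log2(TPM + 1) over cells was 3.62 in the positive and 3.53 in the negative group, and of the 690 genes past the mark 141 (20.4%) differed by more than their SD over cells. Of the 2861 genes, 230 were held by no positive cell and 112 by no negative cell. Among genes past the mark, 99 of the 260 lower ones were held by no positive cell. Likewise 61 of the 430 higher ones were held by no negative cell. In 1 gene, 0.0350% of those measured, the groups did not overlap. That was Adk, the gene of adenosine kinase, which is named here because of this count. Its lowest positive cell had 0.796 TPM and its highest negative cell 0.769 TPM, and 3 of 7 positive cells held it at TPM of at least 10. Quantile normalization of the cells gave 255 higher and 286 lower genes, so the higher share was 47.1% there against 62.3%, and moved the median of all genes by -0.27.

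Rora and Ets1, the label's markers beside Gata3, had higher means in Gata3-positive cells, and lower ones without the suffix 1 cells. Of 16 ILC progenitor genes, 6 were measured, with 2 higher and 4 lower means and a median difference of -0.30. Leaving out negative cell 8 or 25 turned this median to 0.11 or 0.06, and leaving out 14-1 gave -0.86. Without the suffix 1 cells all 6 had lower means in Gata3-positive cells, with a median of -1.09. None was higher by 2 and 1 was lower by 2, against 15% and 9.09% of all genes.

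Rora (chromosome 9, 68653786 to 69388246), which encodes RORα, a nuclear receptor needed for ILC2, was at 0.375, 1.20 and 1429 TPM in the lowest, median and highest positive cell. In negative cells these were 0.313, 1.37 and 831 TPM. It was held by positive cells 10, 14-1 and 17-1 and by negative cells 15 and 28-3, so both groups have high and low cells. Its mean was 4.06 ± 4.29 (SD, n = 7 cells) in positive and 2.64 ± 3.50 (n = 11) in negative cells, a difference of 1.42 that became -0.49 without the suffix 1 cells. In suffix 2 libraries alone, which lack negative cell 28-3, the Rora difference was 0.32, and in suffix 3 libraries alone it was -0.54. Ets1 (chromosome 9, 32636221 to 32757820), an ETS family factor of lymphoid development, was held by 3 of 7 positive cells, with 183 TPM in cell 24, 236 TPM in 14-1 and 34.6 TPM in 17-1. It was held by 4 of 11 negative cells, 19, 25, 27 and 28-3, at 68.1, 335.7, 41.3 and 24.8 TPM. The difference was 0.51 and became -0.90. The label's 3 marker genes were thus held together by cells 14-1 and 17-1. The same 2 cells were the ones with Lyz2, a myeloid gene, at TPM of at least 10 (281 and 2402 TPM). Cd74 was highest in 17-1, at 10510 TPM. It was also held by positive cells 6 and 24 and by negative cells 2, 27, 32 and 34, at 790.5 to 4044 TPM. The part of these transcripts in the result was not tested.

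Tcf7, encoding TCF-1 of early lymphoid commitment, was held by the same 2 positive cells (266 and 111 TPM) and by negative cells 8, 19 and 25 (1152, 70.8 and 1337 TPM). Its difference of -0.53 became -2.50 without the suffix 1 cells, where none of 5 positive cells held it. Id2, the lineage-defining antagonist of E proteins in ILCs, was held by all 18 cells, from 4107 to 12150 TPM in positive and from 3418 to 16950 TPM in negative cells. Its means were 12.93 ± 0.59 and 12.99 ± 0.82. Cxcr6, a chemokine receptor of ILC progenitors, was held by 7 of 7 and 10 of 11 cells with a difference of -1.08 (-1.28).

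Runx3 (chromosome 4, 135120652 to 135177990), a Runt factor used in ILC1 and ILC3, was the list member with the largest difference, and it was lower with Gata3. No positive cell exceeded 0.679 TPM. Negative cells 2, 27, 28-3 and 30 held it at 86.0, 419.7, 156.9 and 356.8 TPM, while the other negative cells were at 0 to 9.21 TPM. The means were 0.25 ± 0.24 and 3.44 ± 3.59, a difference of -3.19 (-3.15). Held shares were 0 of 7 cells (exact Clopper-Pearson 95% interval up to 41.0%) and 4 of 11 (36.4%, 10.9 to 69.2%), and such intervals overlap and cover counting error only. Of the members below the measurement filter, Zbtb16 and Bcl11b, the genes of PLZF and BCL11B, were listed at 0 in all 18 cells, and Tox, a factor of early ILC development, was held by 1 positive and 0 negative cells.

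Of 14 GATA family members and cofactors 5 were measured, 2 with higher and 3 with lower means and a median difference of -0.02 (-0.58). None passed the mark, beside 15% and 9.09% of all genes. Hdac1, a histone deacetylase, differed by 1.00 (-0.51), Chd4, the remodeller of the NuRD complex, by 0.50 (1.04), and Lmo4, a LIM domain adaptor, by -0.08 (-0.58). Rbbp4, a histone chaperone, differed by -0.02 (-1.60) and Fli1, an ETS factor, by -0.65 (-1.11). Gata1, Gata4 and Tal1 were listed at 0 in all 18 cells.

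Of 19 ILC2 genes 5 were measured in the cells, 3 with higher and 2 with lower means in Gata3-positive cells. None was higher by 2 and 2 were lower, beside 15% and 9.09% of all genes. Without the suffix 1 cells 1 was higher and 2 were lower by 2, beside 13.7% and 14.5%. Their median difference was 0.57 (-0.84). The genes for the type 2 cytokines IL-4, IL-5 and IL-13 and for the IL-25 receptor chain (Il4, Il5, Il13 and Il17rb) were listed at 0 in all 18 cells. Il1rl1, the IL-33 receptor, was held by no cell. Areg, encoding amphiregulin, and Klrg1 were each held by 1 positive cell and no negative one.

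Icos (chromosome 1, 60977927 to 61000320), a costimulatory receptor of ILC2 and T cells, was the list member furthest from 0 and was lower in positive cells. The lowest, median and highest positive values were 0, 0.864 and 1.23 TPM. Negative cells 2, 8, 15, 19 and 30 held it at 259.6, 839.9, 19.8, 1613 and 496.1 TPM, and the negative median was 0.744 TPM. So the high values were all in the negative group, while the 6 other negative cells were as low as the positive ones. Icos shares this with many genes, as 99 of the 260 lower genes were held by no positive cell. The difference was -3.26 (-3.12 without the suffix 1 cells), from means of 0.68 ± 0.49 and 3.94 ± 4.50, but the difference of the group medians was 0.10. The held shares were 0 of 7 (interval up to 41.0%) and 5 of 11 cells (45.5%, 16.7 to 76.6%).

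Neurl3, an E3 ubiquitin ligase gene of the ILC2 list, was held by 0 positive and 4 negative cells, with a difference of -3.13 (-3.15). Arg1 (chromosome 10, 24915221 to 24927484), the gene of arginase 1, was very high in 3 cells: positive cells 12 and 24 at 2992 and 2951 TPM and negative cell 32 at 3566 TPM. All other cells had at most 4.42 TPM of it, and its difference of 1.61 became 3.16 without the suffix 1 cells, above the mark. Csf2, encoding GM-CSF, was held by 1 cell of each group, positive cell 24 at 3864 TPM and negative cell 30 at 3313 TPM, a difference of 0.57 (1.42). Ccr8, a chemokine receptor, was held by both suffix 1 cells and by negative cell 25, and its difference of 1.63 became -0.84 without the suffix 1 cells.

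Of 21 ILC3 and LTi genes 10 were measured, 9 with a higher and 1 with a lower mean in Gata3-positive cells, and the median difference was 0.89. Without the suffix 1 cells this became 5 and 5 with a median of 0.06. The mark was passed by 1 member in each direction, Il23r above and Il22 below, beside 15% and 9.09% of all genes.

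Il23r (chromosome 6, 67422932 to 67491855), the receptor chain for IL-23, was held by positive cells 6, 10, 14-1 and 17-1 at 332.9, 577.5, 682.7 and 658.4 TPM. The other positive cells, 12, 24 and 33, had 0.948, 0.698 and 0.259 TPM. Among negative cells 15 and 25 held it, at 244 and 10.9 TPM, and the rest were at 1.92 TPM or less. The means were 5.49 ± 4.51 and 1.43 ± 2.40, a difference of 4.05 (2.49 without the suffix 1 cells), and the groups overlapped. The held shares were 57.1% (18.4 to 90.1%) and 18.2% (2.28 to 51.8%).

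Il22 (chromosome 10, 118204942 to 118210047), the ILC3 cytokine, was at 0, 0.517 and 3.45 TPM in the lowest, median and highest positive cell. Negative cells 19, 27 and 30 had 3446, 9151 and 254.3 TPM, and the other negative cells at most 7.31 TPM. The means were 0.82 ± 0.89 and 3.91 ± 4.81, a difference of -3.09 (-2.77). No cell held both Il22 and Il23r.

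Ltb, the lymphotoxin β gene, was held by every cell, from 599.6 to 10530 TPM in positive and from 1208 to 22160 TPM in negative cells, with a difference of 0.33 (0.37). Lta, its partner, differed by 1.01 (0.59), and Tmem176a and Tmem176b, membrane protein genes of ILC3, by 0.01 (-0.75) and 0.78 (0.57). Kit, the stem cell factor receptor gene, differed by 0.14, Il1r1, the IL-1 receptor gene, by 1.79 and Ccr6, a chemokine receptor of LTi cells, by 1.01. The last 3 became -1.83, 0.28 and -1.36 without the suffix 1 cells.

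**Figure D2:**
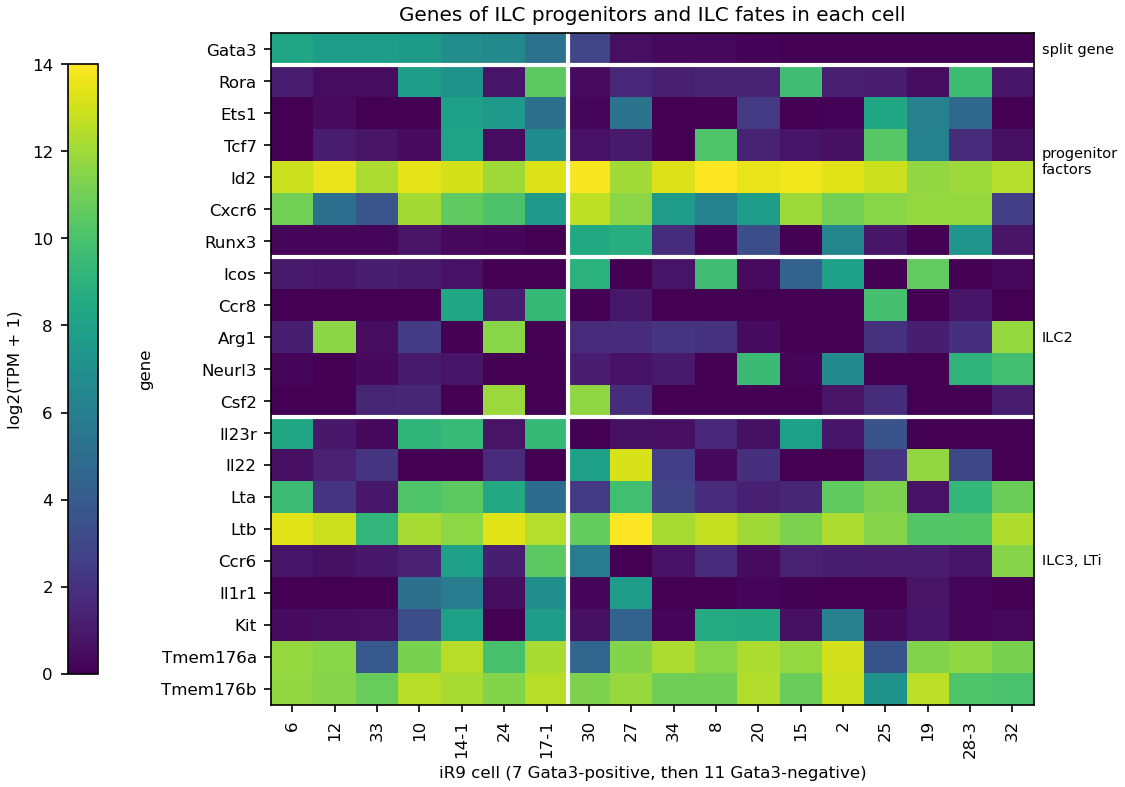
Level of Gata3 and of measured ILC progenitor, ILC2, and ILC3 and LTi genes (rows) in each cell (columns, ordered by Gata3 within each group), as log2(TPM + 1) by colour. The white vertical line parts the 7 Gata3-positive cells from the 11 Gata3-negative ones. Id2 and Ltb are high in every column, Il23r in positive cells 6, 10, 14-1 and 17-1, and Icos, Il22 and Runx3 only in negative cells.

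Some genes parted the positive group into 2 sets of cells, seen after the values were examined and so without a test. The share of all genes that part the positive cells in this or another way is not given, so these sets have no background. Cells 6, 10, 14-1 and 17-1 were those with Il23r. The other 3 cells, 12, 24 and 33, held Ccl5 (chromosome 11, 83525778 to 83530518), a chemokine gene of cytotoxic lymphocytes and ILC1, at 10520, 1424 and 4637 TPM, while no other positive cell exceeded 7.07 TPM. No negative cell held Ccl5 either, the highest being 7.98 TPM. The means were 5.58 ± 6.17 and 0.92 ± 1.35, a difference of 4.65 (6.88). Fcer1g, the signalling adaptor chain of Fc and natural killer receptors, followed the same division: it was at 2362 to 2811 TPM in the 4 Il23r cells and at 13.5, 17.5 and 23.4 TPM in cells 12, 24 and 33. In negative cells Fcer1g was at 1024 TPM or more in all but cell 30, at 22.8 TPM, which gave a difference of -3.14 (-4.36). The transcription factor gene Klf2 was held by cells 12, 24 and 33 alone among the 18, at 21.5, 188 and 184 TPM. It did not pass the measurement filter and is named only for this pattern. The sets also differed in genes at TPM of at least 1, with 1566, 1577 and 1568 in cells 12, 33 and 24 and 1956 to 3238 in the 4 Il23r cells. The part of this in the division was not tested.

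Other genes of natural killer cells and ILC1 gave little signal in either group. Of 17 list members 3 were measured, namely Ccl5, Fcer1g and Tyrobp, and Eomes, Ncr1, Gzma, Prf1 and Ifng were listed at 0 in all 18 cells. Tbx21, encoding T-bet, was at most 0.463 TPM. Klrb1b, a lectin-like receptor, was held by 3 of 7 positive and 8 of 11 negative cells, with a difference of -2.04 (-3.69 without the suffix 1 cells).

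Cytokine receptor and JAK-STAT genes had a median difference of 0.22 (-0.07), the same as all genes, over 11 measured of 26 members. None was higher by 2 and 2 were lower, beside 15% and 9.09% of all genes. Ifngr1, the interferon γ receptor gene, was held by 3 of 7 positive and 8 of 11 negative cells, with medians of 6.34 and 674 TPM and a difference of -2.09 (-3.71 without the suffix 1 cells). Socs2, a feedback inhibitor of cytokine signalling, was held by 1 of 7 and 4 of 11 cells with a difference of -2.66 (-2.97). Stat3 and Jak3 had higher means in positive cells, by 1.95 (1.13) and 1.79 (1.15).

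Genes of the sort gate were measured for 6 of 8 members, 4 with higher and 2 with lower means and a median difference of 0.12. With 14-1 and 17-1 left out, 1 was higher and 5 were lower, and the median was -0.76. Il7r, the gene of CD127, was held by 7 of 7 and 9 of 11 cells and differed by 0.11 (-0.07). Flt3, the gene of CD135, was listed at 0 throughout, and Il2ra, the gene of CD25, was held by no cell. Itga4, the integrin α4 gene, was held by positive cells 24, 33 and 17-1 and by negative cell 34, a difference of 2.15 (2.2 without the suffix 1 cells). Ly6a, encoding Sca1, was held by 2 of 7 and 6 of 11 cells, a difference of -2.18 (-2.54). The labelled phenotype was thus present at the transcript level for Il7r in 16 of 18 cells.

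Gpr183 (chromosome 14, 121952551 to 121965195), the oxysterol receptor that guides ILC3 and lymphocyte migration, was high in every positive cell. Its lowest, median and highest values were 417.6, 916.5 and 1396 TPM there and 1.32, 117 and 1289 TPM in negative cells. All 7 positive cells lay within the range of the negative cells but for the highest 2, and 3 negative cells, 2, 27 and 32, were below 10 TPM. The difference was 3.14 (3.38 without the suffix 1 cells), with an SD of 0.71 in positive and 3.53 in negative cells. Of 18 migration receptor genes 8 were measured, 4 higher and 4 lower, with a median difference of 0.12 (-0.26).

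Of 20 TNF and lymphotoxin family members 9 were measured, and 8 had higher means in positive cells, 9 of 9 without the suffix 1 cells. Their median difference was 0.41 (0.67), beside 0.22 (-0.07) for all genes, of which 56.1% had a higher mean. Without the suffix 1 cells 1392 of the 2861 genes had a higher mean. By the mark 2 members were higher and 0 lower, beside 15% and 9.09% of all genes. Without the suffix 1 cells these were 1 and 0, beside 13.7% and 14.5%. Tnfrsf25, the receptor DR3 that costimulates ILC2 and ILC3, was held by 5 of 7 and 4 of 11 cells with medians of 515 and 3.02 TPM and a difference of 2.98 (2.17 without the suffix 1 cells). Tnfsf14, the ligand LIGHT, was held by positive cells 10, 14-1 and 17-1 and by negative cell 19, so that its difference of 2.99 became 1.17 without the suffix 1 cells.

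Immediate early genes are transcribed within minutes of a stimulus or of handling, and most of those measured had higher means in positive cells. Of 14 list members 10 were measured, 8 with higher and 2 with lower means, and 3 were higher by 2, beside 15% of all genes. The summed level of the list was not higher, with a median of 8033 TPM in positive and 8312 TPM in negative cells. The median difference was 1.71, beside 0.22 for all genes, and it was 0.86 after quantile normalization and 0.75 by group medians. Without the suffix 1 cells all 10 had higher means, 6 by at least 2 beside 13.7% of all genes, and the median was 2.50. In WT cells split by Gata3 the same genes had a median difference of -1.84, the other direction.

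Zfp36 (chromosome 7, 28376784 to 28380253), encoding tristetraprolin, which shortens the life of cytokine mRNAs, was held by 7 of 7 positive cells, at 127, 1299 and 2900 TPM for the lowest, median and highest. It was held by 6 of 11 negative cells, at 0.661, 147.5 and 2488 TPM. The positive cells were thus all high and the negative cells parted into high and low ones. The means were 9.52 ± 1.67 and 5.65 ± 4.31, a difference of 3.87 (4.69). Dusp1 (chromosome 17, 26505590 to 26562128), a MAP kinase phosphatase, was at 313.5 TPM or more in every positive cell but 17-1, which had 0.548 TPM. Negative cells 19, 20, 25 and 27 held it at 468.6 TPM or more and the rest had at most 6.52 TPM. The means were 8.79 ± 3.80 and 5.45 ± 4.36, a difference of 3.35 (5.08). Klf6, a zinc finger factor, was held by positive cells 10, 12, 24 and 33 and by negative cells 15, 27 and 34, a difference of 2.65 (4.71). Fos, a subunit of the factor AP-1, was highest in cells 12 and 33, at 23920 and 11000 TPM, and was below 10 TPM in both suffix 1 cells. Its difference was 1.49 with them and 4.27 without. Jund, another AP-1 subunit, was held by 4 of 7 and 10 of 11 cells and differed by -1.90 (0.11).

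Chaperone genes were measured for 10 of 14 members, 5 higher and 5 lower, with a median difference of 0.51 (-0.16). Of these 3 were higher by 2, beside 15% of all genes. Hspa5, the chaperone BiP of the endoplasmic reticulum, was held by 5 of 7 and 3 of 11 cells with a difference of 3.90 (2.79 without the suffix 1 cells). Hsp90aa1, a cytosolic chaperone, differed by 2.57 (3.15) and Pdia3, a disulfide isomerase, by 2.37 (1.32). Of 12 BCL2 family genes 4 were measured, all with higher means, beside 56.1% of all genes. Of these 4, 3 were higher without the suffix 1 cells, and the median went from 1.59 to 0.39. Bcl2, the survival factor gene, differed by 2.07 but by 0.62 without the suffix 1 cells, and Bad, a death-promoting member, by 2.79 and 3.06. H2-K1, a class I MHC gene, was held by all cells with means of 12.98 ± 0.40 and 11.92 ± 1.53.

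Among genes held by at least 50% of the cells of the higher group, the largest above 0 was Copz1 (chromosome 15, 103272714 to 103299868), a coat protein of Golgi vesicles. Its lowest, median and highest values were 0.802, 663 and 1751 TPM in positive cells, and it was at most 3.16 TPM in negative ones. It was held by 5 of 7 and 0 of 11 cells, with means of 7.08 ± 3.95 and 1.32 ± 0.51 and a difference of 5.76 (5.20). Of the 430 higher genes, 61 were held by no negative cell. Next were Snrnp27, a splicing component (5.40), Xrcc1, a DNA repair scaffold (5.23), Ier5, an early response gene (5.18) and Mocs2, of molybdenum cofactor synthesis (5.08). Trappc1, of vesicle tethering, differed by 5.0, Ctsd, the protease cathepsin D, by 4.96, Ssna1 by 4.84, Snrnp40 by 4.80, Taldo1, of the pentose phosphate pathway, by 4.79 and Mrps34, of the mitochondrial ribosome, by 4.73.

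Eef2 (chromosome 10, 81176631 to 81182498), the translation elongation factor, had the tightest positive group of these. Its lowest, median and highest values were 199.9, 349.6 and 1678 TPM in positive cells. In negative cells they were 0.693, 2.55 and 715 TPM, and cells 15, 20 and 30 had 622.8, 471.7 and 715 TPM. It was held by 7 of 7 cells (interval 59.0 to 100%) and 4 of 11 (36.4%, 10.9 to 69.2%), with means of 8.72 ± 0.99 and 3.83 ± 3.71 and a difference of 4.89 (5.04). Eef2 was chosen for its difference, so these intervals are no test of it. In WT cells it was held by 22 of 24 Gata3-positive and 5 of 5 Gata3-negative cells.

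The largest difference below 0 was that of Kars (chromosome 8, 111993443 to 112011323), the lysyl-tRNA synthetase gene, at -5.20 (-5.33), from means of 0.42 ± 0.62 and 5.63 ± 4.34. No positive cell had more than 1.85 TPM, while 7 of 11 negative cells held it, up to 1289 TPM. Of the 260 lower genes, 99 were held by no positive cell. Fam195a and Cd83, the latter a surface protein of activated lymphocytes and dendritic cells, were each held by 0 of 7 and 6 of 11 cells, with differences of -4.94 (-4.79) and -4.08 (-3.92). Edf1, a transcriptional coactivator, was held by 11 of 11 negative cells, at 405 TPM or more, and by 4 of 7 positive cells, a difference of -4.45. Pla2g16, a phospholipase gene, was held by 2 and 9 cells (-4.11). Also among the 12 were Ndufa8 (-5.06) and Ndufb3 (-4.75) of complex I and Atp5c1 (-4.06) of ATP synthase. Rpl28 (-4.52), Tra2b, a splicing regulator (-4.51), Myeov2 (-4.44) and Tmem256 (-4.02) made up the rest.

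**Figure D3:**
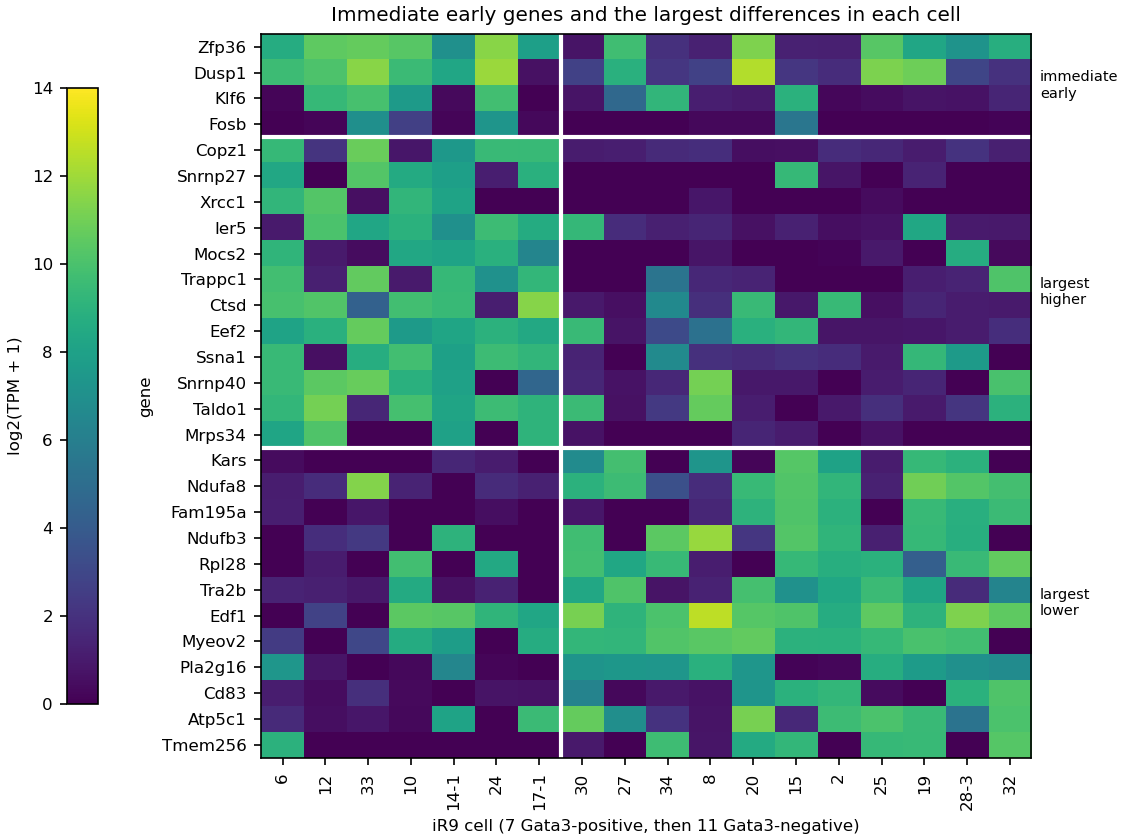
Level of 4 immediate early genes, the 12 largest differences above 0 and the 12 largest below 0 (rows) in each iR9 cell (columns, ordered by Gata3 within each group), as log2(TPM + 1) by colour. The white vertical line parts the 7 Gata3-positive from the 11 Gata3-negative cells. The genes of the lower blocks were chosen for their difference, and most rows still show high and low cells on both sides of the line, while Copz1, Xrcc1 and Mrps34 are high in no negative cell and Kars, Fam195a and Cd83 in no positive cell.

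Widely used genes differed in both directions. Of the 25 ribosomal protein genes listed, all were measured, 16 with higher and 9 with lower means, and 6 were higher and 2 lower by the mark, beside 15% and 9.09% of all genes. Rpl3 differed by 4.0 and Rpl8 by 3.10, but Rpl19 by -3.53 and Rps24 by -3.01. Of 19 measured genes of respiration and glycolysis, 12 were higher and 7 lower. By the mark 3 of them were higher and 1 was lower, beside 15% and 9.09% of all genes. Aldoa and Ldha, enzymes of glycolysis, differed by 3.14 and 2.83 and Gapdh, of the same pathway, by -2.89. Gapdh was listed at 0 in positive cells 12, 33 and 17-1 and held by all 11 negative cells, at 19.9 to 255.7 TPM. Since every cell uses this gene, a listed 0 is not read here as absence of a transcript. The cause of such values was not tested.

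Markers of other cell types were present in part of both groups. Of 19 T cell genes 6 were measured, signalling genes such as Zap70 and Lat that ILCs share, and 3 positive and 4 negative cells held 3 or more of the list. Its summed level was 258 to 3295 TPM in positive and 2.77 to 3623 TPM in negative cells, while Cd3d, Cd3e, Cd8a, Cd5 and Cd28 were listed at 0 in all 18. Dendritic cell genes were held 3 or more at a time by 1 cell of each group, with sums up to 13106 and 4425 TPM, and 17-1 had H2-Aa, a class II MHC gene, at 763.5 TPM. Erythroid genes were so held by 1 positive and 3 negative cells. The summed level of 10 mast cell and basophil genes was at most 34.4 TPM in positive and 1.53 TPM in negative cells, and that of 10 B cell genes at most 0.591 TPM in positive cells. In negative cell 8 the B cell sum reached 1451 TPM, from Vpreb1 at 1450 TPM. Of 12 myeloid genes, Lyz2 was held by the suffix 1 cells only, S100a8 by negative cells 25 and 34, and S100a9 by positive cell 6 and negative cell 34. No cell held 3 or more myeloid genes. The part of these transcripts in the gene differences was not tested.

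The same split in WT cells put different cells side by side. Of the 5 Gata3-negative WT cells, 21-1 and 26-1 had Lyz2 at 35870 and 126900 TPM with Cd74 at 83290 and 74390 TPM. Cells 5-1 and 16-1 had Dntt, the terminal transferase of early lymphocytes, at 1121 and 1931 TPM and Id2 at 15.7 and 26.3 TPM. Cell 25-1 had Id2 at 4553 TPM, within the range of the iR9 cells, which the other 4 were not. Of the 430 genes higher in Gata3-positive iR9 cells, 296 (68.8%) were also above 0 in WT, beside 66.2% of all measured genes. Of the 260 lower ones, 100 (38.5%) were below 0 in WT, beside 33.2%. Both shares lay close to that of all genes.

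The label's markers did differ in WT cells, where Rora was held by 17 of 24 Gata3-positive and 0 of 5 negative cells and Ets1 by 17 and 2, with differences of 5.58 and 3.67. The iR9 differences of 1.42 and 0.51 had the same sign, and those without the suffix 1 cells, -0.49 and -0.90, the opposite one. For Rora the difference was 0.32 in suffix 2 libraries alone, again with the sign of the WT cells. Whether the splits differ between the sources was not tested. Itga4 went from 2.15 in iR9 to -2.73 in WT cells and Zfp36 from 3.87 to -4.89. Il23r was held by no WT cell of either Gata3 group, and neither was Il22.

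**Figure D4:**
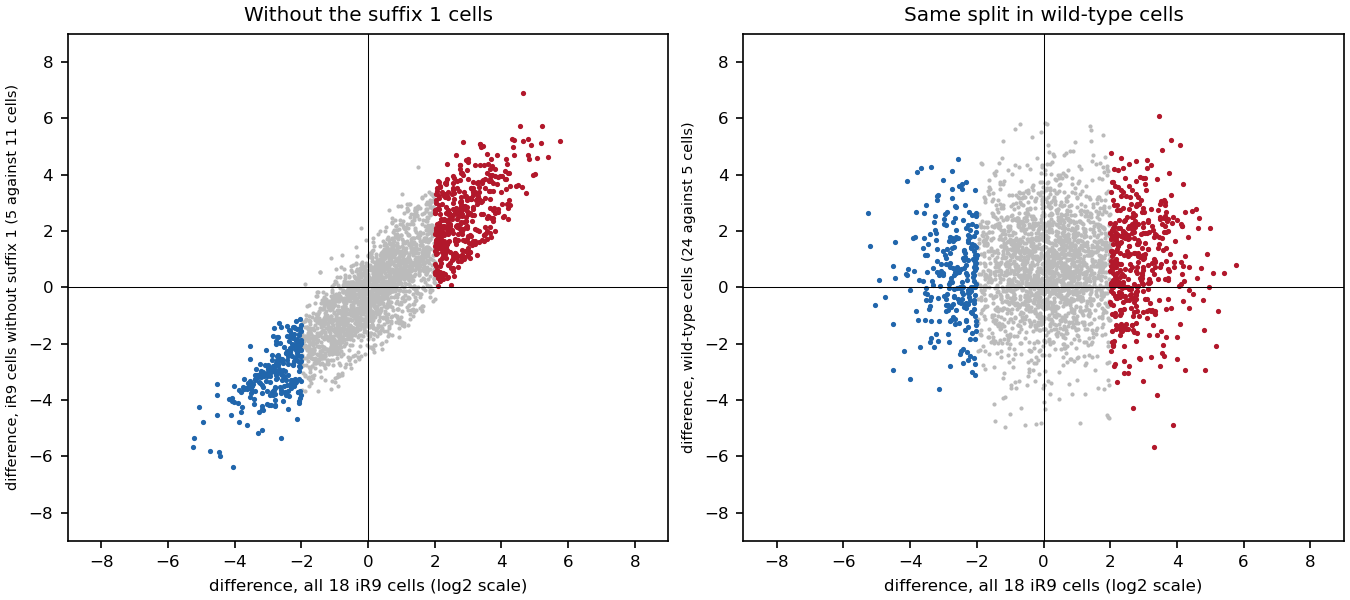
Difference in mean log2(TPM + 1) between Gata3-positive and Gata3-negative iR9 cells (x axis, all 18 cells) against the same difference without the suffix 1 cells (left, y axis) and in WT cells (right, y axis), for each of 2861 genes. Red and blue points are the 430 genes higher and 260 genes lower by at least 2 with all cells, grey points the others. On the left, which shares 16 cells between the axes, every coloured point keeps its sign, while on the right 68.8% of the red points lie above 0 beside 66.2% of all points.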

How the data were processed

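PolyA RNA of single sorted cells was amplified and tagmented into libraries, per the labels' protocols. The authors deposited TPM per gene symbol and library, and the submitters' processing notes name bcl2fastq 2.16.0.10, StringTie 1.3.4, HISAT2 2.1.0, SAMtools 0.1.19 and mm10 as the build. TPM keeps no depth and is no count, so no count test was run. The table held 23420 rows and 63 libraries. In 27 rows, at most 0.540% of a library's TPM, the symbol had become a date, and these were left out of gene values.

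Libraries of 1 cell number with suffixes 2 and 3 were averaged. Gene values are means of log2(TPM + 1), with a pseudocount of 1, which understates the change of low genes. SciPy 1.17.1, pandas 2.3.3 and NumPy 2.4.6 under Python 3.11.15 gave the values and matplotlib 3.10.9 the figures, and the functions were tested on simulated data. Intervals of cell shares are exact (Clopper-Pearson, 95%). They treat cells as independent, cover counting error only and take no account of how a gene was chosen. Gene positions were read from GENCODE M21 (GRCm38, which is mm10). Of 425 list symbols in 31 lists, 7 had no row and 2 were matched through synonyms.

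Named genes were measured members of the progenitor, GATA, ILC2 and ILC3 lists, with Il23r, Runx1 and Hoxa9, up to 4 members of each other list with the largest difference of at least 1, and the 12 genes furthest from 0 on each side, out of those held at 10 TPM or more by 50% or more of the cells in the group with the higher mean. The last kept their sign without the suffix 1 cells and with each other suffix alone, and predicted genes and pseudogenes were left out. Members that are named as absent or for a group's division were chosen after their values were seen. The cells, the lists and this rule were chosen with earlier results of these data known. No doublet caller was run on the sorted single cells, and none of the 18 was removed for quality. Some list members are not reported here singly, while counts and medians of their lists include them. Alternatives changed the cells used, the split, pseudocount, scaling, filters or summary.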

Additional observations from a re-analysis of the deposited data

Results flagged for a closer look

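In the Gata3-positive group, 71 sets of 7 values were examined for a cell far from the others, and 14 had one. The rule marks about 1 in 20 sets by chance only where values are normally distributed. Genes here are mostly either high or very low in a cell, so a gene held by 1 cell is readily marked. Some marked genes, such as Tra2b and Tmem256, were also chosen for their difference. The count of 14 therefore cannot be weighed against that rate. Cell 14-1 had the most genes at TPM of at least 1, 3238. Levels here are log2(TPM + 1). Cell 10 stood high for Runx3 (0.7478, still below 1 TPM), Lgals1 (9.952), Vim (8.818) and Tra2b (8.579). Lgals1 and Vim, of galectin 1 and the filament vimentin, were otherwise held by no positive cell, and by 5 and 4 negative cells. Cell 14-1 stood high for Socs2 (3.789) and Ndufb3 (9.049). Cell 33 stood high for Ndufa8 (11.41) and low for Ldha (2.618) and Taldo1 (1.48). Cell 17-1 was low for Dusp1 (0.6305), cell 6 low for Ier5 (1.035) and high for Tmem256 (9.018), and cell 12 low for Ssna1 (0.5511).

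Library 12-1, which the rule leaves out, had Gata3 at 168.4 TPM and would have been Gata3-positive. It also had Cpa3, a mast cell protease gene, at 65135.7 TPM, and 9 of 10 mast cell and basophil genes at TPM of at least 10, against at most 1 in any kept cell.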

How the results depend on the processing

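The counts of genes moved with the processing. Genes higher by 2 numbered 160 with a pseudocount of 10, 255 after quantile normalization and 195 with the gene filter raised to 9 cells. Genes lower by 2 numbered 415 without the suffix 1 cells, 427 in suffix 2 and 399 in suffix 3 libraries alone, 87 with a pseudocount of 10, 133 with the filter of 9 cells and 165 by group medians. Leaving out each cell in turn gave 374 to 528 higher and 247 to 362 lower genes. Genes without overlap were 2 without the suffix 1 cells and in the shared range of genes detected, and 0 in suffix 2 or suffix 3 libraries alone, with the split at 50 TPM, with TPM below 10 set to 0 and with the filter of 9 cells. Leaving out each cell gave 1 to 2. The ILC2 median was -1.14 in suffix 2 libraries alone and -1.06 to 1.53 without each cell, the lowest without cell 24. Genes detected in negative cells had a median of 1954 in suffix 3 libraries alone, beside 1927 in positive cells. In suffix 2 libraries alone the medians were 1604 in negative and 1415 in positive cells. Icos turned from -3.26 to 0.10 with medians in place of means. The causes were not tested. Of the 65 named genes with a difference of at least 2, the other 64 changed sign under no alternative run. Verdicts on single values used the SD over cells as the yardstick, which is wide here. Depth is unknown, and 7 and 11 cells limit the precision of every share. No paired analysis was possible because the cells of the groups are different cells and no number links them.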

Other observations

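Runx1 and Hoxa9, a Runt factor and a homeobox factor of blood progenitors, were each held by a part of both groups. Runx1 was held by positive cells 6, 33 and 17-1 at 479, 1499 and 18.4 TPM and by 7 of 11 negative cells, a difference of -1.47 (-0.87 without the suffix 1 cells). Hoxa9 was held by positive cells 6 and 33 at 503 and 1753 TPM and by 4 negative cells, a difference of -0.85 (0.38). Runx1 and Il23r were held together by cells 6, 17-1 and 25.

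Genes of the cell cycle were measured for 6 of 22 list members, 4 higher and 2 lower, and Cdk4, a kinase of G1 phase, differed by 2.56 and was held by positive cells 10 and 12 and by negative cell 2. Mki67, Rrm2 and Birc5, genes of dividing cells, were listed at 0 in all 18 cells. All 4 measured erythroid genes had lower means in positive cells, 2 of 4 without the suffix 1 cells, and Hba-a2, a globin gene, reached 13620 TPM in positive cell 33. Of the S100 and maturation list 10 of 12 members were measured, 3 higher and 7 lower: S100a6 differed by 3.48, while Emp3 and Vim differed by -2.83 and -2.22.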
